A study of Rattus norvegicus with 24 samples.

Results

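Kidney control of phosphate, calcium and vitamin D was followed through 10 genes, which were looked up by rat gene symbol among the 17334 genes of the deposited tables. All 10 were found, and all 10 passed the low-count filter that left 12778 genes for testing. They are the phosphate carriers Slc34a1, Slc34a3 and Slc20a2, the Klotho gene Kl and the FGF receptor gene Fgfr1, the vitamin D enzymes Cyp27b1 and Cyp24a1 with the receptor Vdr, and the calcium channel Trpv5 with the calcium buffer Calb1. They were taken by name, with no measured value in the rule.

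RNA of the left kidney was sequenced from 24 male PKD/Mhm (Cy/+) rats at 8 months of age, with 6 animals in each of 4 groups. Every animal, those of the control group included, carried a copy of the Cy mutation and developed kidney cysts, so no healthy kidney was compared. Carriers were told from non-cystic animals by palpation. Control rats (Ctrl) were untreated. The others were injected monthly for 6 months with conditioned medium (CoCM), or with human skin-derived ABCB5+ stromal cells given intraperitoneally (ipABCB5) or intravenously (ivABCB5). The conditioned medium came from a co-culture of ABCB5+ cells with stimulated human THP-1 macrophages, and its route of injection is given differently in different places of the study's own text. Control animals were numbered from 1 to 24 and treated animals from 26 to 43, so treatment and the order of the animals cannot be told apart.

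In the kidney, filtered phosphate is taken back in the proximal tubule by sodium-phosphate cotransporters of the brush border. Fibroblast growth factor 23, a bone hormone, binds an FGF receptor together with its coreceptor Klotho, and this signal lowers phosphate uptake, lowers the enzyme that makes calcitriol (active vitamin D) and raises the enzyme that destroys it. Calcitriol acts through the vitamin D receptor, and in the distal convoluted and connecting tubule it supports active calcium uptake through the channel Trpv5 and the buffer calbindin. The axis is known to be disturbed in chronic kidney disease.

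Sequence upstream of the start site is shown for 4 of the 10 genes, for Kl and Vdr because their levels moved together from animal to animal, and for Slc34a1 and Slc34a3 because the ratio between these carriers had the lowest p-values against Ctrl of the 5 ratios compared. Upstream sequence was found in the RefSeq table of the GRCr8 assembly for 6 of the 10 genes. Each line holds the 250 bases before the annotated start, 5′ to 3′ on the strand of the gene. Capitals mark motifs on either strand. The GC box was searched as GGGCGG, and the TATA box was searched with the letters TATAAA. All 4 windows were searched for both motifs.
Kl, chr12:5325753-5326002 (+): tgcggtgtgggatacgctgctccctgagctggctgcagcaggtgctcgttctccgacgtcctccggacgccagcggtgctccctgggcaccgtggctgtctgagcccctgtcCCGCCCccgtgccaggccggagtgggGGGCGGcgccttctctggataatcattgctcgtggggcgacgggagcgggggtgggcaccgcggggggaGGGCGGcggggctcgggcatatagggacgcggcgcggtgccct
Vdr, chr7:130916758-130917007 (−): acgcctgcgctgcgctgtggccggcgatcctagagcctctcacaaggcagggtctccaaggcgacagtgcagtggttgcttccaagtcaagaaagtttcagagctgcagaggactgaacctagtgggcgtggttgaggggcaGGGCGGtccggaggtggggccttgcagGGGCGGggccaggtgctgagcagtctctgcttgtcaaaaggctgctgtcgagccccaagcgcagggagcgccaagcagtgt
Slc34a1, chr17:9238984-9239233 (−): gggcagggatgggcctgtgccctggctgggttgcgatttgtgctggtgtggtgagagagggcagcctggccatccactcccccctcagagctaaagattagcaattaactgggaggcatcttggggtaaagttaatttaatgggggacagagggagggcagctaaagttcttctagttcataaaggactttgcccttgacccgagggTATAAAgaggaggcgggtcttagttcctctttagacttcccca
Slc34a3, chr3:28447998-28448247 (−): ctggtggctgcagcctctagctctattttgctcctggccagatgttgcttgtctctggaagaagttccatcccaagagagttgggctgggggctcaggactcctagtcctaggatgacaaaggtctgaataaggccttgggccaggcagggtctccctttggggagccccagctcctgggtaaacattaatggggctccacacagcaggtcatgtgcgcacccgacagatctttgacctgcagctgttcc
The Kl window held 3 GC boxes at 73.2% G and C, and the Vdr window held 2 at 63.6%. A GC box occurs in 30.5% of the 33469 windows of this length in the table. The Slc34a1 window held 1 copy of TATAAA, which occurs in 12.9% of windows, and the Slc34a3 window held neither motif. A match is a run of letters and not a site shown to be used.

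Libraries held from 9304630 to 14125457 estimated counts. CPM (counts scaled to the library total with TMM factors) were used to compare groups, and TPM (which also corrects for transcript length) to compare genes. Markers of proximal tubule, thick ascending limb, connecting tubule and podocyte were present in every group, whereas 6 genes of parathyroid, bone and liver, which kidney should lack, summed to 3.82 to 9.09 TPM over the 24 animals, with 1 of them at 0 in all. On the first principal component, 4 treated animals (CoCM 39, ipABCB5 38, ivABCB5 36 and ivABCB5 37) stood apart, with scores from 80.8 to 97.4 against −53 to 11.5 in the other 20. A list of 9 injured tubule genes summed to 992 to 1192 TPM in these 4 and to 7662 to 15254 TPM in the other 20. Macrophage and leukocyte markers summed to 741 to 1524 TPM against 2634 to 6135 TPM. Fibroblast and pericyte markers summed to 239 to 319 TPM against 412 to 1601 TPM. Endothelial markers, at 236 to 311 TPM in the 4, lay within the range of the others (193 to 390 TPM). Several results are therefore given with and without them, and others for all 24 animals or for the other 20 only. In whole kidney, fewer cells of a type and less RNA per cell cannot be told apart.

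Levels across the 10 genes spanned a wide range. By mean TPM over 24 animals the order was Slc34a1 (1265), Calb1 (501), Kl (102), Fgfr1 (66.3), Vdr (54.9), Slc34a3 (43.9), Cyp24a1 (39), Trpv5 (24.5), Slc20a2 (17.5) and Cyp27b1 (0.827). Slc34a1 exceeded Calb1 in 23 of 24 animals, Calb1 exceeded Kl in 24, and Slc20a2 exceeded Cyp27b1 in 24. The middle of the order was not separated, since Slc34a3 lay above Cyp24a1 in only 13 of 24 animals and Vdr lay above Slc34a3 in 16.

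Animals of the same group differed widely in most of these genes. The within-group SD of log2 CPM was 0.58 to 0.90 for 8 of the 10, which placed each of them above 81.8% or more of the 11820 genes compared, where the median was 0.28. Cyp24a1 had the highest value, 0.90. Fgfr1 and Slc20a2 were the exceptions, with SDs of 0.19 and 0.15.

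**Figure D1:**
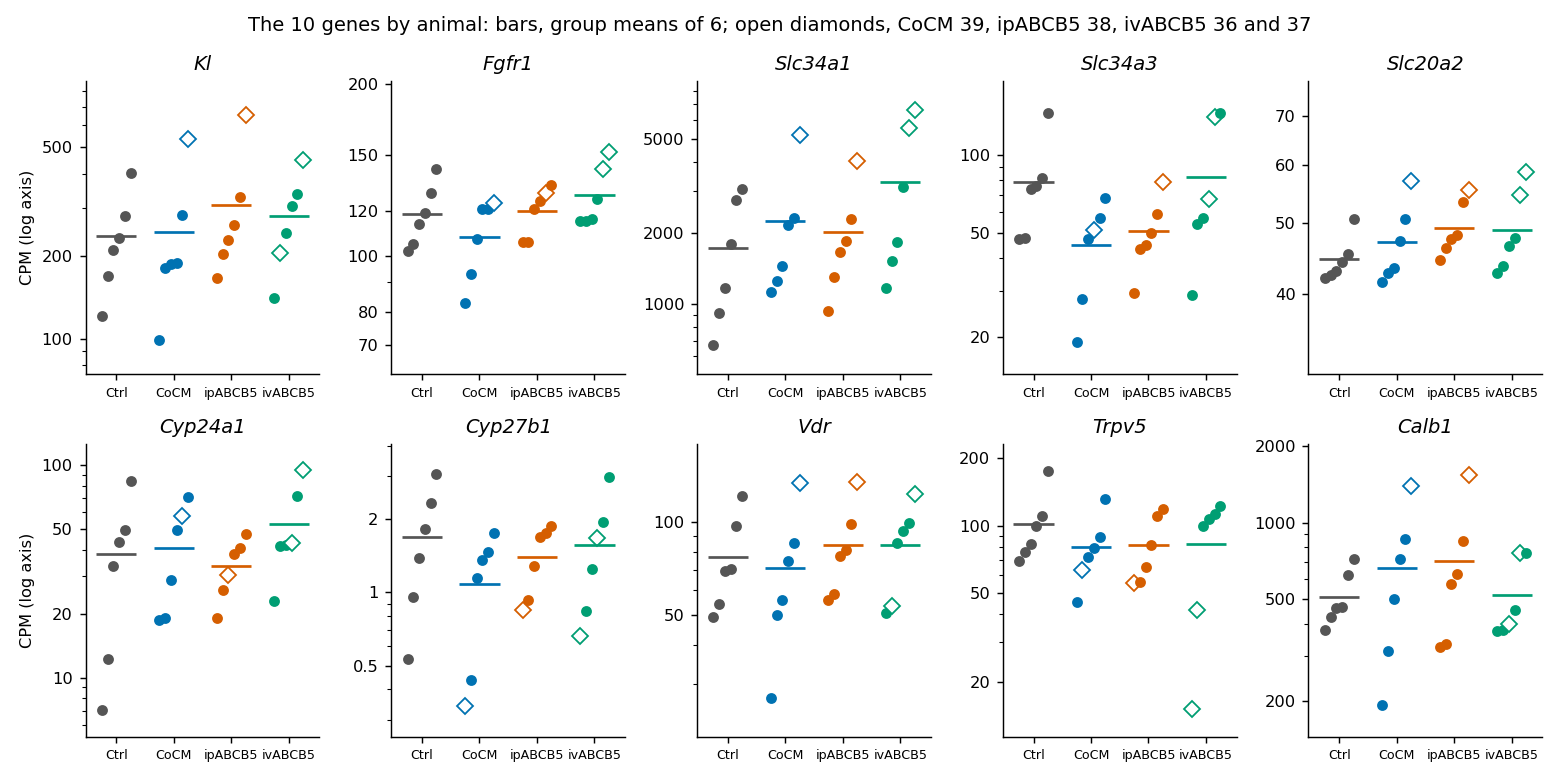
CPM (log axis, scaled for each gene) of the 10 genes in each of 24 animals, by group. Dots are animals, bars are means of 6, and open diamonds are the 4 animals that stood apart. The groups overlap for every gene, and the 4 diamonds are the highest points for Slc34a1.

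No gene of the 10 passed an adjusted p-value of 0.05 in any comparison. Against Ctrl, the share of all 12778 genes called was 0.00783% for CoCM, 0% for ipABCB5 and 0% for ivABCB5 (edgeR quasi-likelihood test), and it was 0% for ipABCB5 against ivABCB5 and 0% over the 4 groups. The smallest adjusted p among the 10 genes was 0.404 for CoCM, 0.978 for ipABCB5, 0.673 for ivABCB5, 1 between the routes and 0.817 over the 4 groups. At an unadjusted p under 0.05, 1 of the 10 was found for CoCM, where 11.9% of all genes were, and none for ipABCB5 (1.77% of all genes), ivABCB5 (5.78%), the routes (2.14%) or the 4 groups (4.71%). DESeq2 called 0 of the 10 in each comparison too, while over all genes it called 79 for CoCM, 1 for ipABCB5, 1 for ivABCB5, 2 between the routes and 10 over the 4 groups. The ranges of the 2 groups compared overlapped for all 10 genes in every comparison, whereas they did not overlap for 1.38% of all genes for CoCM, 0.047% for ipABCB5, 0.11% for ivABCB5 and 0.0626% between the routes. The median log2 fold change of the 10 against Ctrl was −0.03 for CoCM, 0.07 for ipABCB5 and 0.12 for ivABCB5, beside 0.01, 0.00 and 0.01 over all genes. All comparisons with Ctrl used the same 6 control animals.

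**Figure D2:**
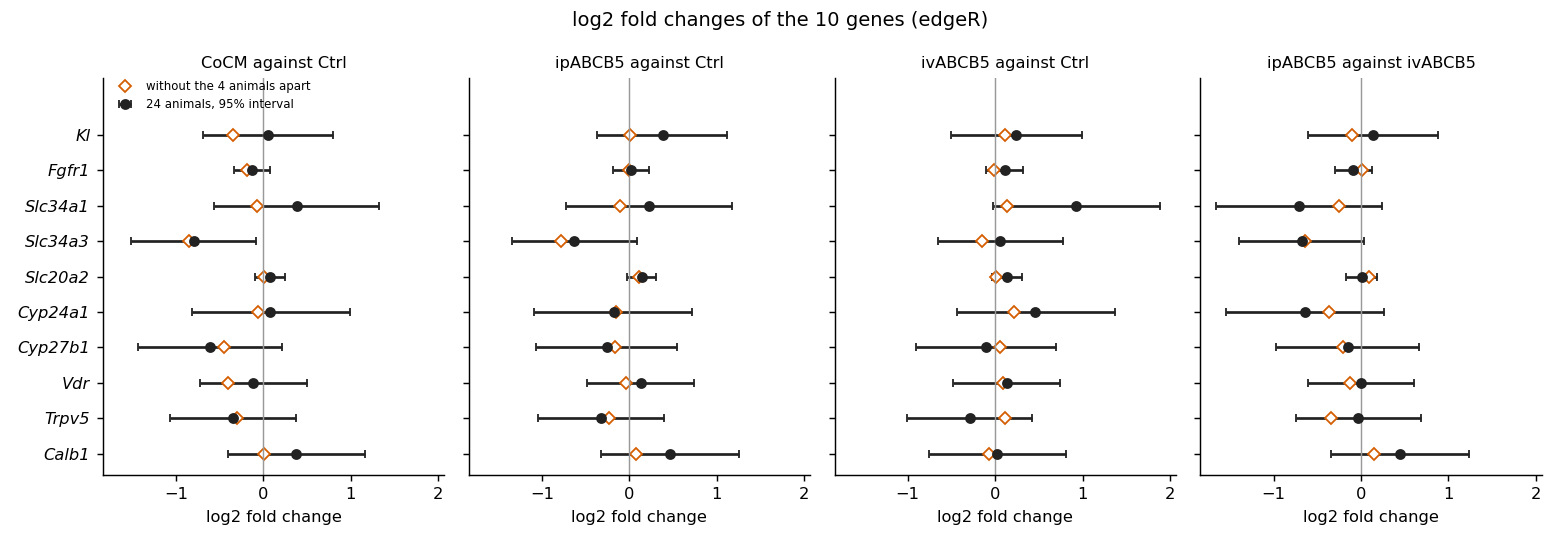
log2 fold change of each gene in 4 comparisons (edgeR). Black dots are estimates from 24 animals with 95% intervals, and open diamonds are estimates without the 4 animals that stood apart. For Slc34a1 in ivABCB5 the estimate moves from 0.93 to 0.14 when they are left out, while for Slc34a3 in CoCM it is −0.80 with them and −0.85 without.

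Slc34a1 (Entrez 25548) encodes NaPi-IIa, the main phosphate carrier of the proximal brush border in rodents. In CPM, the lowest, median and highest values were 673, 1482 and 3064 in Ctrl and 1128, 1800 and 5175 in CoCM. For ipABCB5 these were 933, 1753 and 4049, and in ivABCB5 1169, 2474 and 6610. The 4 animals that stood apart were the 4 highest of all 24, at 5175, 4049, 5554 and 6610 CPM, and no other animal exceeded 3114. Group means in CPM were 1730 ± 994 in Ctrl, 2247 ± 1514 in CoCM, 2015 ± 1100 in ipABCB5 and 3301 ± 2277 in ivABCB5 (SD, n = 6 each). The log2 fold change against Ctrl was 0.38 ± 0.483 (SE) in CoCM, 0.22 ± 0.483 in ipABCB5 and 0.93 ± 0.486 in ivABCB5, the last with an unadjusted p of 0.0682 and an adjusted p of 0.673 (edgeR; two-sided exact permutation p = 0.158). Without the 4 animals the estimates were −0.07, −0.11 and 0.14. Summed markers of the proximal tubule moved with the gene, at 13182 to 28749 TPM in these 4 animals against 1503 to 13415 TPM in the other 20. To set the gene beside these markers, the mean log2 TPM of 12 proximal tubule genes was subtracted from the log2 TPM of Slc34a1. This difference was 2.15 ± 0.54 in Ctrl, 2.17 ± 0.27 in CoCM, 1.93 ± 0.24 in ipABCB5 and 2.05 ± 0.16 in ivABCB5, and the 4 animals, at 1.91 to 2.43, lay within the range of the other 20 (1.56 to 3.18). For ivABCB5 it differed from Ctrl by −0.10 (exact permutation p = 0.823).

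Slc34a3 (Entrez 246234) encodes NaPi-IIc, a second carrier of the same brush border. Its lowest, median and highest CPM were 47.5, 75 and 144 in Ctrl and 19.2, 49.4 and 68.1 in CoCM. In ipABCB5 they were 29.4, 47.6 and 78.4, and in ivABCB5 28.9, 62.2 and 144. In CoCM 3 of 6 animals lay below the lowest control, in ipABCB5 3 of 6 and in ivABCB5 1 of 6, and the ranges overlapped in each case. Means were 78.6 ± 35.2 CPM in Ctrl, 45.1 ± 18.3 in CoCM, 51 ± 16.6 in ipABCB5 and 81.7 ± 47.9 in ivABCB5 (SD, n = 6 each). The log2 fold change in CoCM was −0.80 ± 0.366 (SE), with an unadjusted p of 0.0396 and an adjusted p of 0.404 (edgeR; exact permutation p = 0.0476), so it did not pass the test over all genes. An unadjusted p under 0.05 with a lower level in CoCM was found for 5.96% of all genes. In ipABCB5 the estimate was −0.63 ± 0.365 and in ivABCB5 0.06 ± 0.362, with adjusted p-values of 0.978 and 0.958. Between the routes it was −0.68 ± 0.365 (adjusted p = 1). Leaving out the 4 animals gave −0.85 in CoCM (adjusted p = 0.276), −0.78 in ipABCB5 and −0.15 in ivABCB5. The sign in ivABCB5 also turned with voom and sample quality weights (−0.61), so no direction can be given there.

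The balance between both carriers was then compared within each animal. The log2 ratio of Slc34a3 to Slc34a1 in TPM ranged from −4.80 to −3.54 in Ctrl with a median of −4.05. It ranged from −6.52 to −3.77 in CoCM (median −5.27), from −5.53 to −4.09 in ipABCB5 (median −5.16) and from −6.08 to −4.16 in ivABCB5 (median −4.89). Below the lowest control lay 4 of 6 CoCM, 4 of 6 ipABCB5 and 3 of 6 ivABCB5 animals, and in no treated group did an animal lie above the highest control. The mean was −4.07 ± 0.46 in Ctrl, −5.26 ± 1.08 in CoCM, −4.93 ± 0.65 in ipABCB5 and −4.97 ± 0.67 in ivABCB5 (SD, n = 6 each). The difference from Ctrl was −1.19 in CoCM (two-sided exact permutation p = 0.0325), −0.86 in ipABCB5 (exact p = 0.0346) and −0.90 in ivABCB5 (exact p = 0.0216). After adjustment over the 20 ratio comparisons made each had a p-value of 0.231 (exact permutation tests), so none passed. The ratio in ipABCB5 and ivABCB5 differed by 0.05 (exact permutation p = 0.911). A lower ratio did not rest on the same gene in each group. In ivABCB5 the log2 fold change against Ctrl was 0.06 for Slc34a3 and 0.93 for Slc34a1 (edgeR), so Slc34a3 itself was not lower there. For CoCM these were −0.80 and 0.38, and for ipABCB5 −0.63 and 0.22.

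Leaving out the 4 animals, the differences from Ctrl were −0.97 (exact permutation p = 0.0628), −0.76 (exact p = 0.0584) and −0.55 (exact p = 0.0857). The unadjusted p-value also rose above 0.05 on leaving out any of CoCM 26, 34, 35 or 39 or Ctrl 1, 12, 22 or 23 in CoCM, with differences over all 12 such fits from −1.49 to −0.94. In ipABCB5 it did so without ipABCB5 31, 32, 38 or 41 or Ctrl 1 or 12, with differences from −1.03 to −0.74, and in ivABCB5 it stayed under 0.05 in all 12, from −1.07 to −0.68. Set against the same 12 proximal tubule markers, Slc34a3 was −1.92 ± 0.86 in Ctrl, −3.09 ± 1.15 in CoCM, −2.99 ± 0.78 in ipABCB5 and −2.92 ± 0.74 in ivABCB5. The differences from Ctrl were −1.17 (exact permutation p = 0.0758), −1.07 (exact p = 0.0476) and −1 (exact p = 0.0519), each with a p of 0.495 after adjustment over the 40 comparisons with segment markers, which were added after the values were seen. Without the 4 animals they were −1 (exact permutation p = 0.147), −1.02 (exact p = 0.0866) and −0.62 (exact p = 0.238). Over the other 20 animals Slc34a3 did not move detectably with the mean of these markers (r = 0.174, permutation p = 0.478). These differences therefore also carry the variation of the markers and do not measure Slc34a3 alone.

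**Figure D3:**
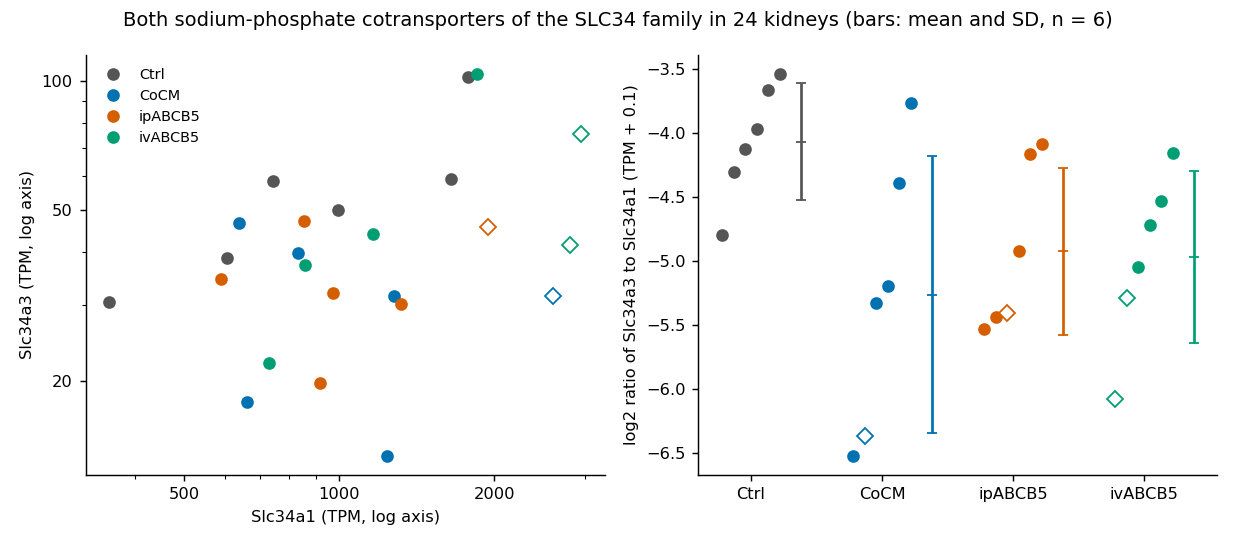
Left, TPM of Slc34a3 against TPM of Slc34a1 in 24 kidneys (both axes log). Right, the log2 ratio of Slc34a3 to Slc34a1 by group, with mean and SD (n = 6) beside the animals, where open diamonds are the 4 animals that stood apart. Treated means lie between −5.26 and −4.93 and the control mean at −4.07, with overlapping ranges. In ivABCB5 the log2 fold change against Ctrl was 0.06 for Slc34a3 and 0.93 for Slc34a1 (edgeR).

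Slc20a2 (Entrez 29502) encodes PiT-2, a phosphate carrier of a different family that is present in many tissues. It was the least variable of the 10 genes. Its means were 44.6 ± 3.18 CPM in Ctrl, 47.1 ± 5.96 in CoCM, 49.2 ± 4.29 in ipABCB5 and 49 ± 6.33 in ivABCB5 (SD, n = 6 each). The 4 animals that stood apart had the 4 highest CPM, at 54.6 to 58.7 against 41.5 to 53.4 in the other 20, but on the TPM scale all 4 lay within the range of the others, so this order depends on the scale. The log2 ratio of Slc34a1 to Slc20a2 was 5.67 ± 0.85 in Ctrl and 5.98 ± 0.65, 5.81 ± 0.65 and 6.39 ± 0.90 in CoCM, ipABCB5 and ivABCB5. The largest of its differences from Ctrl was 0.72 in ivABCB5 (exact permutation p = 0.184), and without the 4 animals it was 0.24 (exact permutation p = 0.643).

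Kl (Entrez 83504) encodes Klotho, the coreceptor that gives FGF23 its kidney specificity and is made mainly in the distal tubule. Across animals the lowest, median and highest CPM were 121, 222 and 402 in Ctrl and 99.2, 188 and 536 in CoCM. For ipABCB5 these were 167, 245 and 654, and in ivABCB5 141, 274 and 448. The highest animal of each treated group was one of those that stood apart, and without them treated animals ranged from 99.2 to 337 CPM, none of them above the highest control. Means were 236 ± 97.8 CPM in Ctrl, 246 ± 154 in CoCM, 307 ± 178 in ipABCB5 and 280 ± 108 in ivABCB5 (SD, n = 6 each). The log2 fold change against Ctrl was 0.05 ± 0.380 (SE) in CoCM, with a 95% interval from −0.69 to 0.80. It was 0.38 ± 0.380 in ipABCB5 (−0.37 to 1.12) and 0.24 ± 0.380 in ivABCB5 (−0.50 to 0.99), with adjusted p-values of 0.955, 0.978 and 0.813 (edgeR). Without the 4 animals the CoCM estimate was −0.35 ± 0.290 (adjusted p = 0.526), and its sign also turned on leaving out CoCM 39 (−0.34), Ctrl 1 (−0.08), Ctrl 18 (−0.02) or Ctrl 22 (−0.01) alone. No direction can be given for Kl in CoCM. The other estimates fell to 0.01 in ipABCB5 and 0.11 in ivABCB5 without the 4 animals.

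Fgfr1 (Entrez 79114) encodes the FGF receptor that forms the FGF23 receptor with Klotho. Its means were 118 ± 15.2 CPM in Ctrl, 108 ± 16.9 in CoCM, 120 ± 11.4 in ipABCB5 and 128 ± 15.7 in ivABCB5 (SD, n = 6 each). All 24 animals lay between 83 and 152 CPM, a range of 1.83-fold beside 6.59-fold for Kl. Without the 4 animals that stood apart these ranges were 1.71-fold and 4.06-fold. The log2 ratio of Kl to Fgfr1 was 0.35 ± 0.65 in Ctrl and 0.45 ± 0.71, 0.65 ± 0.70 and 0.49 ± 0.53 in CoCM, ipABCB5 and ivABCB5, and no difference between groups had an exact permutation p under 0.459. The differences from Ctrl, without the 4 animals, went from 0.09, 0.30 and 0.14 to −0.13, 0.07 and 0.14.

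Cyp27b1 (Entrez 114700) encodes the enzyme that makes calcitriol and was the least abundant gene, with 3 to 43 estimated counts per library. Its means were 1.68 ± 0.923 CPM in Ctrl, 1.08 ± 0.572 in CoCM, 1.4 ± 0.44 in ipABCB5 and 1.56 ± 0.847 in ivABCB5 (SD, n = 6 each). The lowest value, 0.341 CPM, was that of CoCM 39 and rested on 3 counts. The highest were 3.06 CPM in Ctrl and 2.98 CPM in ivABCB5. The 95% interval of its log2 fold change in CoCM ran from −1.43 to 0.21.

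Cyp24a1 (Entrez 25279) encodes the enzyme that breaks down calcitriol and is a classic target of the vitamin D receptor. The lowest, median and highest CPM were 7.03, 38.4 and 84.4 in Ctrl and 18.6, 39.3 and 70.5 in CoCM. In ipABCB5 they were 19, 34.4 and 47.7, and in ivABCB5 22.9, 42.8 and 94.9. The control group alone spanned 12-fold, and every CoCM and ipABCB5 animal lay within it. The log2 ratio of Cyp24a1 to Cyp27b1 was 4.85 ± 1.75 in Ctrl, 5.71 ± 1.56 in CoCM, 5.14 ± 0.62 in ipABCB5 and 5.66 ± 0.93 in ivABCB5 (SD, n = 6 each). None of the 4 differences between groups in this ratio reached an unadjusted p of 0.05, the smallest being 0.312 for ipABCB5 against ivABCB5 (exact permutation test). On leaving out the 4 animals, the differences from Ctrl went from 0.86, 0.29 and 0.80 to 0.51, 0.20 and 0.44.

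Vdr (Entrez 24873) encodes the receptor through which calcitriol acts on genes. In CPM, the lowest, median and highest values were 49.1, 69.9 and 121 in Ctrl and 27, 65.2 and 133 in CoCM. For ipABCB5 these were 55.9, 79.3 and 134, and in ivABCB5 50.7, 89.5 and 123. Means lay between 70.9 and 84.2 CPM, closer together than the SD of any group. The highest values of all 24 were those of CoCM 39, ipABCB5 38 and ivABCB5 36 on the CPM scale, whereas on the TPM scale all 4 animals that stood apart lay within the range of the other 20.

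Trpv5 (Entrez 116469) encodes the apical calcium channel of the distal convoluted and connecting tubule. Its lowest, median and highest CPM were 69.5, 90.9 and 175 in Ctrl and 45.5, 75.9 and 132 in CoCM. In ipABCB5 they were 55.5, 74 and 119, and in ivABCB5 15.1, 104 and 122. The lowest values of all 24 were 15.1 and 41.9 CPM in ivABCB5 37 and ivABCB5 36, while the other 4 ivABCB5 animals lay between 100 and 122. Means were 102 ± 38.8 CPM in Ctrl, 80.3 ± 29.2 in CoCM, 81.6 ± 27.8 in ipABCB5 and 83.2 ± 43.8 in ivABCB5 (SD, n = 6 each). The log2 fold change against Ctrl was −0.35 in CoCM, −0.32 in ipABCB5 and −0.29 in ivABCB5 (edgeR). Without the 4 animals that stood apart it was −0.30, −0.23 and 0.11, so the sign turned in ivABCB5.

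Calb1 (Entrez 83839) encodes calbindin, the protein that carries calcium through the cell from Trpv5 to the basolateral side. Across animals the lowest, median and highest CPM were 380, 463 and 722 in Ctrl and 192, 611 and 1392 in CoCM. For ipABCB5 these were 326, 601 and 1536, and in ivABCB5 376, 425 and 760. In each treated group 2 animals lay below the lowest control and at least 2 above the highest. The log2 ratio of Trpv5 to Calb1 was −3.99 ± 0.29 in Ctrl, −4.46 ± 1.08 in CoCM, −4.59 ± 1.12 in ipABCB5 and −4.50 ± 1.28 in ivABCB5 (SD, n = 6 each). The smallest p for this ratio was 0.242, in ipABCB5 (exact permutation test). Without the 4 animals the differences from Ctrl went from −0.47, −0.60 and −0.51 to −0.15, −0.24 and 0.27, so that the sign turned in ivABCB5.

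The 4 animals that stood apart did not move all 10 genes in the same way. On both scales Slc34a1 lay above the range of the other 20 animals in all 4 of them, Calb1 in 2, and Kl in 2 of 4 on the TPM scale and 3 of 4 on the CPM scale. Slc34a3 lay within the range in all 4. Trpv5 lay below it in ivABCB5 36 and ivABCB5 37, and Cyp27b1 below it in CoCM 39. Of 6 markers of the distal convoluted tubule, 4 were in the tables and 3 of those had a mean of 1 TPM or more. Set against these markers, log2 Trpv5 was −0.33, −0.76, −0.58 and −1.52 in CoCM 39, ipABCB5 38, ivABCB5 36 and ivABCB5 37. All lay below the range of 0.15 to 1.61 in the other 20. Set against 7 markers of the connecting tubule and principal cell, it was −4.46, −5.02, −4.39 and −5.55, also below the range of the others (−3.94 to −2.26). Between groups the latter difference was −0.68 for CoCM against Ctrl (exact permutation p = 0.0433, adjusted p = 0.495 over the 40 comparisons), and −0.49 without the 4 animals (exact permutation p = 0.0736). Summed markers of the distal convoluted tubule themselves were 1244, 1524, 875 and 470 TPM in these animals and 393 to 1427 TPM in the other 20. These 4 animals were set apart by the whole profile, so their values are a description and were not tested. Beyond leaving these animals out, their part in the results was not tested.

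**Figure D4:**
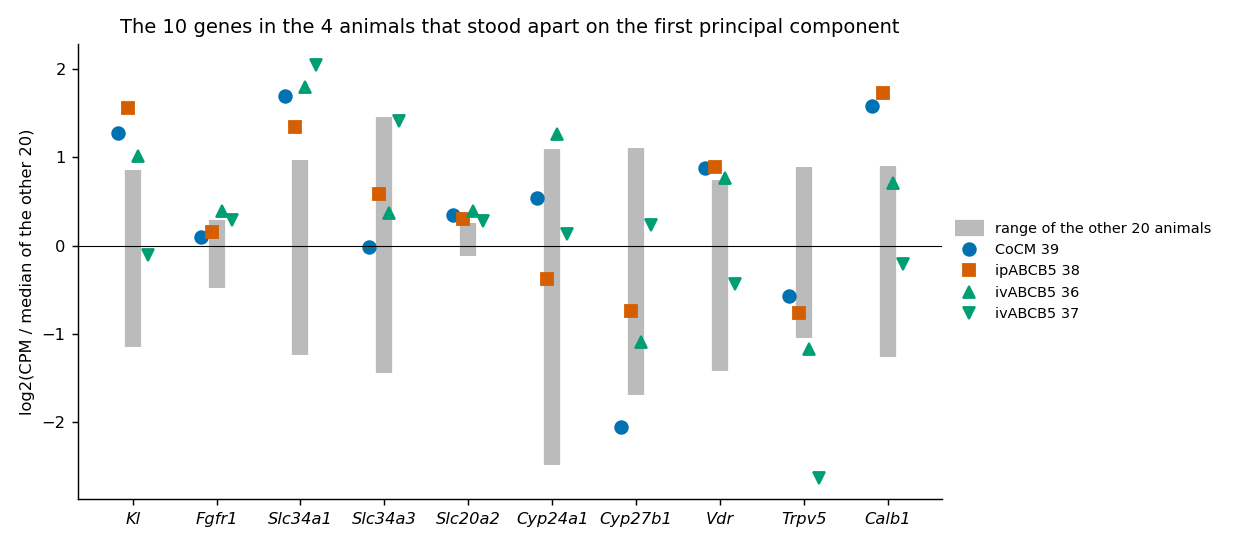
CPM of each gene in CoCM 39, ipABCB5 38, ivABCB5 36 and ivABCB5 37 as log2 of the ratio to the median of the other 20 animals, whose range is the grey bar. Slc34a1 is above the bar in all 4, at 4049 to 6610 CPM, and Trpv5 is below it in both ivABCB5 animals, at 41.9 and 15.1 CPM.

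Which of the genes varied together was asked over the 20 other animals, after the mean of its group was taken from each value, so that differences between groups play no part. Of 45 pairs, 3 had adjusted p-values under 0.05 by both Pearson's r and Spearman's rho, all 3 with r above 0 (permutation within groups, 100000 resamples). All values of an animal come from 1 library.

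Kl and Vdr formed the closest pair. Pearson's r was 0.925 (permutation p = 0.00001, the smallest possible; adjusted p = 0.00045) and Spearman's rho 0.865 (permutation p = 3e-05; adjusted p = 0.00135). It was 0.902 without the 2 animals farthest from the median of Kl, 0.972 in the 6 controls, 0.906 in the 14 treated animals and 0.940 over all 24. Both genes also moved with the mean of the distal convoluted tubule markers, Kl with r = 0.801 (permutation p = 0.00013; rho 0.732, permutation p = 0.00119; r without 2 animals 0.711) and Vdr with r = 0.716 (permutation p = 0.00209; rho 0.574, permutation p = 0.0204; r without 2 animals 0.703). Adjusted over the 8 relations with markers, which were added after the pairs were seen, these had permutation p-values of 0.000427 and 0.00317 for Kl and 0.00418 and 0.0326 for Vdr. With the markers of connecting tubule and principal cell r was 0.690 for Kl (permutation p = 0.00332, adjusted 0.00531; rho 0.654, permutation p = 0.00573, adjusted 0.0115; r without 2 animals 0.580) and 0.551 for Vdr (permutation p = 0.0247, adjusted 0.0329; rho 0.499, permutation p = 0.0433, adjusted 0.0578; r without 2 animals 0.442). The mean of the distal convoluted tubule markers rests on 4 genes, of which 3 had a mean of 1 TPM or more. The part of these segments in the pair was not tested.

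Slc34a1 and Cyp24a1 were the second pair, with r = 0.725 (permutation p = 0.00351; adjusted p = 0.0395) and rho = 0.792 (permutation p = 0.00051; adjusted p = 0.0115). It was 0.674 without the 2 animals farthest from the median of Slc34a1, 0.730 in the controls and 0.721 in the 14 treated animals. Both moved with the mean of the proximal tubule markers. For Slc34a1 r was 0.868 (permutation p = 4e-05, adjusted 0.00032; rho 0.886, permutation p = 0.00001, adjusted 8e-05; r without 2 animals 0.841). For Cyp24a1 r was 0.829 (permutation p = 0.00016, adjusted 0.000427; rho 0.806, permutation p = 0.00042, adjusted 0.00168; r without 2 animals 0.733).

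The third pair was Slc34a3 and Cyp27b1, with r = 0.761 (permutation p = 0.00047; adjusted p = 0.0106) and rho = 0.671 (permutation p = 0.00365; adjusted p = 0.0479). It was 0.694 without the 2 animals farthest from the median of Slc34a3, 0.649 in the controls and 0.852 in the 14 treated animals, but 0.491 over all 24. Neither gene moved detectably with the mean of the proximal tubule markers, at r = 0.174 for Slc34a3 (permutation p = 0.478, adjusted 0.547; rho 0.150, permutation p = 0.555, adjusted 0.634; r without 2 animals 0.184) and r = −0.085 for Cyp27b1 (permutation p = 0.765, adjusted 0.765; rho −0.113, permutation p = 0.674, adjusted 0.674; r without 2 animals −0.135). These markers include Slc5a2, which was the gene closest to Slc34a3 (rho 0.940), so the mean does not speak for every marker. Cyp27b1 rested on 5 to 43 counts in these 20 animals. Both proximal carriers, Slc34a1 and Slc34a3, had r = 0.456 (permutation p = 0.0585, adjusted p = 0.262) and rho = 0.432 (permutation p = 0.0747, adjusted p = 0.259), and r was 0.291 without 2 animals, so that a relation between them was not shown.

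Further pairs passed by 1 of the 2 measures. Kl and Calb1 had r = 0.642 (permutation p = 0.0026, adjusted p = 0.039) and rho = 0.612 (permutation p = 0.00687, adjusted p = 0.0618). It was 0.552 without the 2 animals farthest from the median of Kl. Slc34a1 and Trpv5 went in opposite directions, with r = −0.606 (permutation p = 0.00697, adjusted p = 0.0627) and rho = −0.686 (permutation p = 0.00426, adjusted p = 0.0479), and with −0.636 on leaving out the 2 animals.

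**Figure D5:**
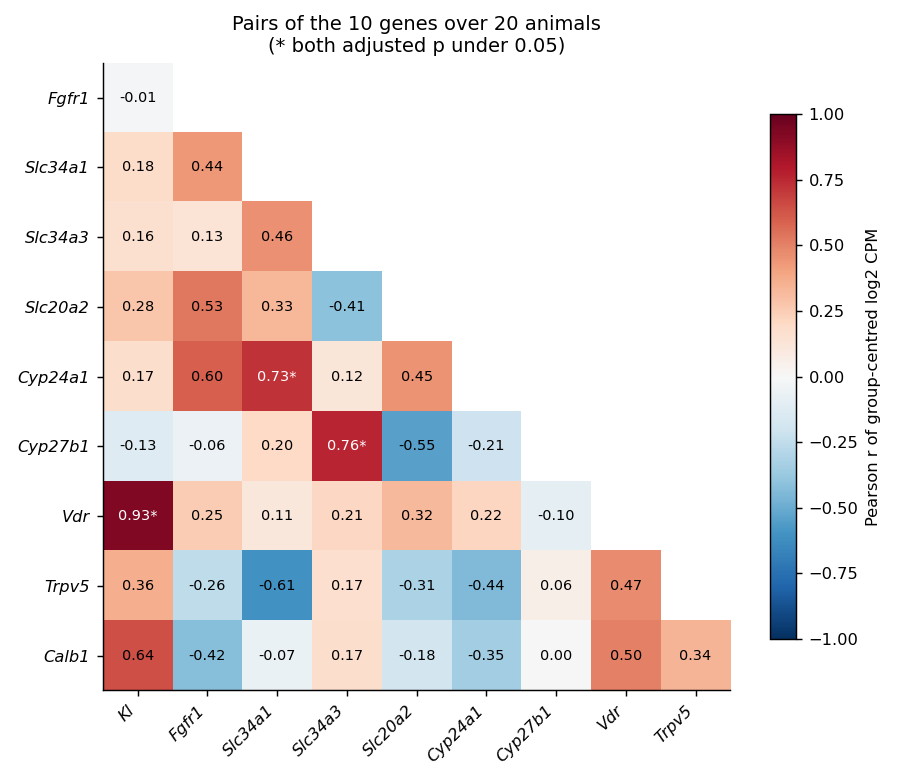
Pearson's r for the 45 pairs of genes over 20 animals, from log2 CPM with each group's mean removed. Stars mark the 3 pairs with both adjusted p-values under 0.05. Kl with Vdr is the strongest at 0.925, and the lowest value, −0.606, is that of Slc34a1 with Trpv5.

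The genes closest to each of the 10 were taken from 11754 others by Spearman's rho over the same 20 animals, as a description with no test. Closest to Slc34a1 were Nherf4 (rho 0.950), Tmc3 (0.937) and Xylb (0.934). Closest to Slc34a3 were Slc5a2 (0.940), which encodes the glucose carrier SGLT2, Rxrg (0.914) and Asl (0.856). Slc5a2 is also among the proximal tubule markers used above. For Slc20a2 they were Pctp (0.865), Btc (0.847) and Mfn2 (0.841). No gene was listed for more than 1 of these 3 carriers, but only 3 genes were taken for each, so sharing was not tested.

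Closest to Kl were the kinase gene Wnk1 (rho 0.949), Slit2 (0.940) and Ermp1 (0.934), and closest to Fgfr1 were Il4r (0.922), Eml1 (0.887) and Gna12 (0.883). Vdr had the highest values of all, with Nt5dc3 (0.980), Scube3 (0.973) and the plasma membrane calcium pump gene Atp2b4 (0.968). Close to Cyp24a1 were Gsdme (0.928) and Lrp2 (0.910), which encodes megalin, the receptor that takes up filtered vitamin D with its binding protein. For Cyp27b1 the values were lowest, with Rab3il1 (0.806), Slc16a6 (0.798) and Slc11a1 (0.774). Trpv5 was closest to Adamts15 (0.874), Pld2 (0.868) and Dcdc2 (0.860), and Calb1 to Ppp2r2b (0.935), the kallikrein gene Klk1 (0.922) and Pgam2 (0.907).

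The rest of the pathway was read from 4 lists. Of 15 tested genes of phosphate transport and its regulators, 12 of FGF and Klotho signalling, 12 of vitamin D metabolism and action, and 17 of calcium and magnesium handling, 0 passed the adjusted threshold in either direction in any of the 4 comparisons. The median log2 fold change of a list lay between −0.12 and 0.36. The highest, 0.36, was that of calcium and magnesium handling in ipABCB5, where the median over all genes was 0.00. An unadjusted p under 0.05 was found for 4 of the 56 list genes in CoCM (7.14%, beside 11.9% of all genes), 1 in ipABCB5 (1.79% beside 1.77%), 5 in ivABCB5 (8.93% beside 5.78%) and 1 between the routes (1.79% beside 2.14%). Named here are the genes of each list with an unadjusted p under 0.05 among those with the smallest p-values, none of which passed the adjusted test (edgeR).

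In CoCM the phosphate list held Ankh, a membrane protein that exports pyrophosphate, with 27.4 ± 6.71 CPM against 42 ± 11.3 in Ctrl (log2 fold change −0.62 ± 0.242, adjusted p = 0.37). The list of FGF and Klotho signalling held Adam10 and Adam17, proteases that release Klotho from the cell surface. Adam10 had 90.7 ± 11.6 CPM in CoCM and 117 ± 10.6 in Ctrl (−0.36 ± 0.139, adjusted p = 0.363). Adam17 had 67.7 ± 7.06 CPM in CoCM and 79.9 ± 5.03 in Ctrl (−0.24 ± 0.0953, adjusted p = 0.374). In the vitamin D list Dab2, an adaptor for uptake by megalin, had 400 ± 57.1 CPM in CoCM and 516 ± 110 in Ctrl (−0.37 ± 0.152, adjusted p = 0.38). Leaving out the 4 animals gave −0.55 for Ankh, −0.36 for Adam10, −0.20 for Adam17 and −0.40 for Dab2.

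In ivABCB5 the phosphate list held Galnt3, an enzyme that protects FGF23 from cleavage, with 23.7 ± 11.6 CPM against 15.2 ± 4.05 in Ctrl (log2 fold change 0.64 ± 0.251, adjusted p = 0.673), and Nherf1, a scaffold that holds NaPi-IIa in the brush border, with 452 ± 277 CPM against 285 ± 102 (0.66 ± 0.319, adjusted p = 0.673). Fgfr4 had 87 ± 28.1 CPM against 65.6 ± 11 (0.41 ± 0.179), Adam17 69.4 ± 10.6 against 79.9 ± 5.03 (−0.20 ± 0.0952), and S100g, which encodes the small calbindin, 2.11 ± 2.12 against 0.806 ± 0.428 (1.35 ± 0.646), each with an adjusted p of 0.673 (edgeR). Without the 4 animals these were 0.10 for Galnt3, −0.05 for Nherf1, 0.09 for Fgfr4, −0.08 for Adam17 and −0.11 for S100g, so that none of the 4 higher values in ivABCB5 exceeded 0.10 without these animals. In ipABCB5 the tight junction gene Cldn19 of the thick ascending limb had 114 ± 32.3 CPM against 82 ± 14.9 in Ctrl (0.48 ± 0.215, adjusted p = 0.978), and 0.53 without the 4 animals. Between the routes Spry4, an inhibitor that FGF signals induce, had 26.5 ± 3.85 CPM in ipABCB5 and 34.1 ± 5.71 in ivABCB5 (−0.36 ± 0.133, adjusted p = 1), and −0.25 without the 4 animals.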

How the data were processed

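Total RNA of whole left kidney was read on a BGISEQ-500. The submitters' processing notes name Trim Galore 0.6.4, kallisto (written as 0.4.6) and rn6, whereas the study's methods name human gene models and DESeq2. The authors deposited, for each animal, estimated counts per Entrez gene, which were not normalized, and TPM values, scaled by the authors to transcript length and library total. Symbols for 17179 of the 17334 identifiers, and upstream sequence, came from RefSeq tables of GRCr8, a different build, so no coordinates of counted genes were used.

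Estimated counts were rounded, filtered with filterByExpr by group and scaled by TMM, and a mean per group was fitted to all 24 animals with the edgeR 4.0.16 quasi-likelihood F-test (R 4.3.3, limma 3.58.1). The 95% intervals of fold changes are a normal approximation from the edgeR SE. The Benjamini-Hochberg adjustment ran over all 12778 genes, with a threshold of 0.05. Single values were compared by two-sided exact permutation over 924 divisions of 12 animals, for which the smallest p is 0.00216. Ratios used log2(TPM + 0.1) and pairs used log2 CPM with a prior count of 2. Groups came from the sample labels. The animals are taken as separate, and no 2 libraries were identical. A floor of 3 counts is 0.322 CPM in the smallest library and covers counting error only. The code was tested on simulated counts.

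The 10 genes, the pathway and marker lists, the tests and the alternatives (DESeq2 1.42.0, other size factors, filters, units, weights and animals left out) were chosen with earlier results of these data known. Named were all 10 genes, the genes of each list with the smallest p-values (up to 2 per comparison, given where the unadjusted p was under 0.05), and the 3 genes most like each of the 10, of which 1 is not reported here. The comparisons and correlations with segment markers were added after seeing the data.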

Additional observations from a re-analysis of the deposited data

Results flagged for a closer look

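Among 60 sets of 6 animals (10 genes and 5 ratios in 4 groups), 4 held an animal whose gap to its nearest neighbour was large beside the range of its group, where chance gives about 3. Kl was 654 CPM in ipABCB5 38 and 167 to 329 CPM in the other 5 ipABCB5 animals. Slc34a1 was 5175 CPM in CoCM 39 and 1128 to 2323 CPM in the other 5 CoCM animals. Slc34a3 was 144 CPM in Ctrl 22 and 47.5 to 81.7 CPM in the other 5 controls. The log2 ratio of Cyp24a1 to Cyp27b1 was 7.52 in ivABCB5 36 and 5.07 to 5.60 in the other 5 ivABCB5 animals. Of these, 3 are among the 4 animals that stood apart on the first principal component, and Ctrl 22 is not.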

How the results depend on the processing

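No paired analysis was possible because no animal number occurred in more than 1 group. None of the 10 genes was called under the alternatives run or with any animal left out, but Cyp27b1 was not tested where at least 10 counts were required in every sample. The number of all genes called for CoCM was 1 and became 79 with DESeq2, 183 with voom and sample quality weights, and 0 in the fit of only the groups compared, with limma on log2(TPM + 0.1), log2(TPM + 1) or unfiltered log2(TPM + 0.1), or without the 4 animals that stood apart, and it ranged from 0 to 31 on leaving out 1 animal. DESeq2 called 1 gene in ipABCB5, 1 in ivABCB5, 2 between the routes and 10 over the 4 groups, where voom called 1 and leaving out 1 animal gave 0 to 1. For Kl in CoCM the log2 fold change was −0.17 with voom, −0.15 with limma on each TPM scale and −0.35 without the 4 animals, and from −0.34 to 0.24 on leaving out 1 animal. Between the routes Kl was −0.13 with voom and −0.10 without the 4 (from −0.22 to 0.32 on leaving out 1). For Slc34a1 it was −0.07 in CoCM and −0.11 in ipABCB5 without the 4 (from −0.06 to 0.59 and from −0.11 to 0.44 on leaving out 1), and 0.02 between the routes with voom. For Slc34a3 in ivABCB5 it was −0.61 with voom, −0.14 with limma on each TPM scale and −0.15 without the 4 (from −0.18 to 0.30 on leaving out 1). Without the 4, Nherf1 in ivABCB5 was −0.05 and S100g −0.11, and with voom S100g was −0.14. The cause was not tested. For the other 7 genes 36 of 304 estimates changed sign, 56 of 672 on leaving out 1 animal, and 0 crossed the threshold.

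Without the 4 animals the ratio of Slc34a3 to Slc34a1 differed from Ctrl by −0.97 in CoCM, −0.76 in ipABCB5 and −0.55 in ivABCB5, all with an unadjusted exact permutation p above 0.05, and between the routes by −0.22 (from −0.18 to 0.21 on leaving out 1). Slc34a1 to Slc20a2 in ipABCB5 was −0.06 (from −0.07 to 0.36), Trpv5 to Calb1 in ivABCB5 0.27, Kl to Fgfr1 in CoCM −0.13 (from −0.13 to 0.30) and between the routes −0.07 (from −0.07 to 0.31). On leaving out 1 animal the difference ranged from −0.23 to 0.62 for Cyp24a1 to Cyp27b1 in ipABCB5, from −0.90 to −0.24 for Trpv5 to Calb1 in ipABCB5 and from −0.46 to 0.27 between the routes, and from −0.04 to 0.35 for Kl to Fgfr1 in ivABCB5. For Trpv5 to Calb1 in ipABCB5 the unadjusted exact permutation p fell under 0.05 in 1 of the 12 such fits. The ratio of Slc34a3 to Slc34a1 ranged from −1.49 to −0.94 in CoCM, from −1.03 to −0.74 in ipABCB5 and from −1.07 to −0.68 in ivABCB5. The correlation of Slc34a3 with Cyp27b1 was 0.491 over all 24 animals. Cyp27b1 rested on the fewest counts of the 10 genes, 3 to 43 per library.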
